A study of Mus musculus with 9 samples.

Results

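The 10 Notch pathway genes described here were followed through the neural stem cell (NSC) lineage of the adult mouse brain: the receptors Notch1, Notch2 and Notch3, the ligands Dll1, Dll3 and Jag1, the targets Hes1, Hes5 and Hey1, and the HES family gene Hes6. They were chosen by name, for their place in a pathway that holds NSCs quiescent, and make up 10 of the 32287 genes in the count matrix. Each was described in CPM, the unique molecular identifiers (UMIs) of the gene per 1000000 UMIs summed over the same cells, first from quiescent and activated NSCs to progenitors and neuroblasts, then in quiescent cells across age, genotype and tissue.

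Notch signals between touching cells. A Delta or Jagged ligand on one cell binds a Notch receptor on its neighbour, the receptor is cut by an ADAM protease and then by γ-secretase, and the freed intracellular part joins RBPJ in the nucleus to switch on HES and HEY repressors, which in turn hold down genes of neuronal differentiation. In the adult ventricular-subventricular zone (vSVZ) this exchange is known for keeping stem cells undifferentiated while their progeny, which carry the ligands, leave for the olfactory bulb.

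The data came from droplet 3′ single-cell RNA sequencing of TiCY mice, in which tamoxifen activates a CreERT2 driven by Tlx and so labels NSCs and their progeny with the reporter eYFP. All groups carried this driver and reporter and received tamoxifen. Wild-type TiCY mice (WT) were compared with TiCY mice lacking both the type-I and the type-II interferon receptor (TiCY-IFN(A/G)-R, here KO). Both young groups were 16 weeks old, the WT old group 80 weeks and the KO old group 92 to 105 weeks. The WT young group was killed 6 weeks after tamoxifen and the other 3 groups 9 weeks after it. For the KO old mice, tamoxifen ages of 85 and 98 weeks were stated, which with that interval add up to more than the stated ages. Each of the 4 groups held 2 mice, run together in 1 reaction, so a difference between groups and a difference between reactions cannot be told apart. Cells were sorted as eYFP+ or GLAST+ from the vSVZ and as eYFP+ or eYFP-/PSANCAM low from striatum, rostral migratory stream and olfactory bulb, which were combined (rest of the brain, RoB), after removal of CD45+, Ter119+ and O4+ cells.

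A total of 18051 cells were analysed, 5818 from WT young, 2394 from WT old, 6462 from KO young and 3377 from KO old, with median depths of 5024.5, 7393, 7057 and 7060 UMIs. A hashtag giving tissue and mouse could be called for 5810 cells, and 30 barcode sequences occurred in more than 1 library. Ifngr1, part of the type-II receptor, was at 46.8 and 85.5 CPM in the WT libraries and at 2.86 and 4.40 in the KO libraries, and Ifnar1, part of the type-I receptor, at 21.3 and 28.5 against 8.07 and 6.57. Clusters were formed without the Notch genes and named from marker lists: quiescent NSC-like (with a vSVZ hashtag 400 to 610 cells per library), activated NSC-like (30 to 344), transit-amplifying progenitor-like (TAP-like, 34 to 684) and neuroblast-like (316 to 2861). The activated, TAP-like and neuroblast-like classes were taken with any hashtag or none. Of the activated cells 11.6% carried a hashtag, and 80.5% of those were from the vSVZ. From quiescent to later stages, tissue and hashtag calling therefore differ along with stage. All 10 quiescent markers were detected in the quiescent class of each library, where they summed to between 25056 and 29692 CPM, against 119 to 289 in neuroblast-like cells. Astrocytes share those markers, so the quiescent class also holds astrocytes, in a share that was not tested. In 1 of its clusters 49.1% of cells had eYFP transcripts, and in its other clusters 4.12% to 10.7%. The activated class was led by replication genes, among them Mcm3, Rrm2 and Mcm5. The TAP-like clusters were led by Hist1h1b and Top2a, and by Cenpf and Cenpa, which are also cell cycle genes. Stage and cell cycle phase therefore cannot be told apart between these classes. One cluster of 481 cells led by Nptx2, Prss56 and Egfr raised markers of both activated and quiescent NSCs and kept no class name (Egfr and Nptx2 cluster). It is given below only as a description, as is the cluster within the quiescent class that is rich in eYFP transcripts.

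The promoter windows of members that hold either of the short motifs named next are printed first, because the known link between Notch and its targets runs through such a motif. Those of Notch1, Notch2 and Notch3 hold neither and are not printed. Windows run from 250 bases before to 50 bases from the start of the transcript on, 5′ to 3′, from RefSeq on GRCm38.p6. Of the 10 members, 8 had an entry, with 10 windows between them. Hes1 and Hey1 had none. Capitals mark the core of the RBPJ motif, TGGGAA, read on either strand (TTCCCA on the other), or the palindrome CAGCTG, an E-box. The 2 motifs do not overlap each other.
Hes5, chr4:154960673-154960972, plus strand, RBPJ core at -226 and -82: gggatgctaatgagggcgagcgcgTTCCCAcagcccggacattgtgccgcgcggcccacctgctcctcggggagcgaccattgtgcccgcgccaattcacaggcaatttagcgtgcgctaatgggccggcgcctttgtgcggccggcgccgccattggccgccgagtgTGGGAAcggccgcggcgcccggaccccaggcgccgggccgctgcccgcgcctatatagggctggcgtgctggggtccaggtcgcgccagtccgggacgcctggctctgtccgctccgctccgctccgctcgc
Hes6, chr1:91413989-91414288, minus strand, CAGCTG at -171: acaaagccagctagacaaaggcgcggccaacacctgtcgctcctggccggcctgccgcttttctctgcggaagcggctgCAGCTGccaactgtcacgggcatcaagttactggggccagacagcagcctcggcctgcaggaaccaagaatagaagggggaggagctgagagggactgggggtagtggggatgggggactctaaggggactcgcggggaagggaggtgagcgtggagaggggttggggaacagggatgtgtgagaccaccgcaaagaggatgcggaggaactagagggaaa
Jag1, chr2:137116471-137116770, minus strand, CAGCTG at -82: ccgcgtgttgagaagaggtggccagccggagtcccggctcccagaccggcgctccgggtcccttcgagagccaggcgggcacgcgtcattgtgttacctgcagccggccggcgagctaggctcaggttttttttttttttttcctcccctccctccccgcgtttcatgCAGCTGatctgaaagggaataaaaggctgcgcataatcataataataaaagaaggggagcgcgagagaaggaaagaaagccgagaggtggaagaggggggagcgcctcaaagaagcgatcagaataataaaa
Dll3, chr7:28301736-28302035, minus strand, CAGCTG at -7: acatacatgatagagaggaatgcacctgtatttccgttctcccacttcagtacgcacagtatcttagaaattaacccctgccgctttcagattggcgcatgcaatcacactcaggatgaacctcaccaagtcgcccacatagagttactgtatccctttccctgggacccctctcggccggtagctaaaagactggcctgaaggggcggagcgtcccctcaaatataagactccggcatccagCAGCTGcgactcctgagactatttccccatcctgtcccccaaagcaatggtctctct
Dll1, chr17:15376883-15377182, minus strand, CAGCTG at -132: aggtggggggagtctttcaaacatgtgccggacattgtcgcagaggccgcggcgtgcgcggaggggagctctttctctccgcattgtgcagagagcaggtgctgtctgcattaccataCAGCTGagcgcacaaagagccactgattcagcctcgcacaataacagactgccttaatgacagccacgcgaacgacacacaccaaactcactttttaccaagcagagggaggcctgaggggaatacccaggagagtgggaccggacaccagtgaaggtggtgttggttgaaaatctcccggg

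The RBPJ core was found in 25.6% of all 32851 promoter windows and CAGCTG in 16.3%, so neither motif is rare. Among the members, the RBPJ core was present in the Hes5 window alone. CAGCTG was present in the windows of Hes6, Jag1, Dll3 and Dll1, though in only 1 of the 2 Dll1 windows. Hes6 had a second window that is not printed (chr1:91413173-91413472, minus strand), with CAGCTG at -150. These matches describe the letters of the windows and not bound sites.

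From quiescent NSC-like cells to the activated class, which was led by replication genes, the members moved in both directions. The targets Hes5, Hes1 and Hey1 and the receptors Notch1, Notch2 and Notch3 fell, and the ligands Dll1, Dll3 and Jag1 and the family member Hes6 rose. All 10 members passed the test (edgeR quasi-likelihood on UMI sums per library, Benjamini-Hochberg adjusted over 11681 genes), where 74.7% of all genes passed, 34.5% higher and 40.2% lower. The 4 higher and 6 lower members must be read against that background. The median change of the 10 members was -2.06 on the log2 scale, and that of all genes tested was -0.097 (-0.165 with DESeq2 and -0.159 with its size factors, which turned no member's direction). A stage here means the same 4 libraries seen in different cells, with the library as a block. Some sizes depended on how the classes were drawn. With the Egfr and Nptx2 cluster counted as activated, a setting chosen after seeing the data, the changes were -2.59 for Hes5, -1.45 for Hes1, -2.50 for Hey1 and -1.88 for Notch2, all still called and all smaller than the values given next. At Leiden resolution 0.5, which gives coarser clusters, the rise of Dll1 was 1.80 and was called. The 8 alternatives for this step also included the eYFP-rich cluster alone as the quiescent class. Over them Hes5 ranged from -5.23 to -2.59, Hes6 from 1.96 to 2.92 and Dll1 from 1.80 to 4.87, each called in all 8.

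**Figure D1:**
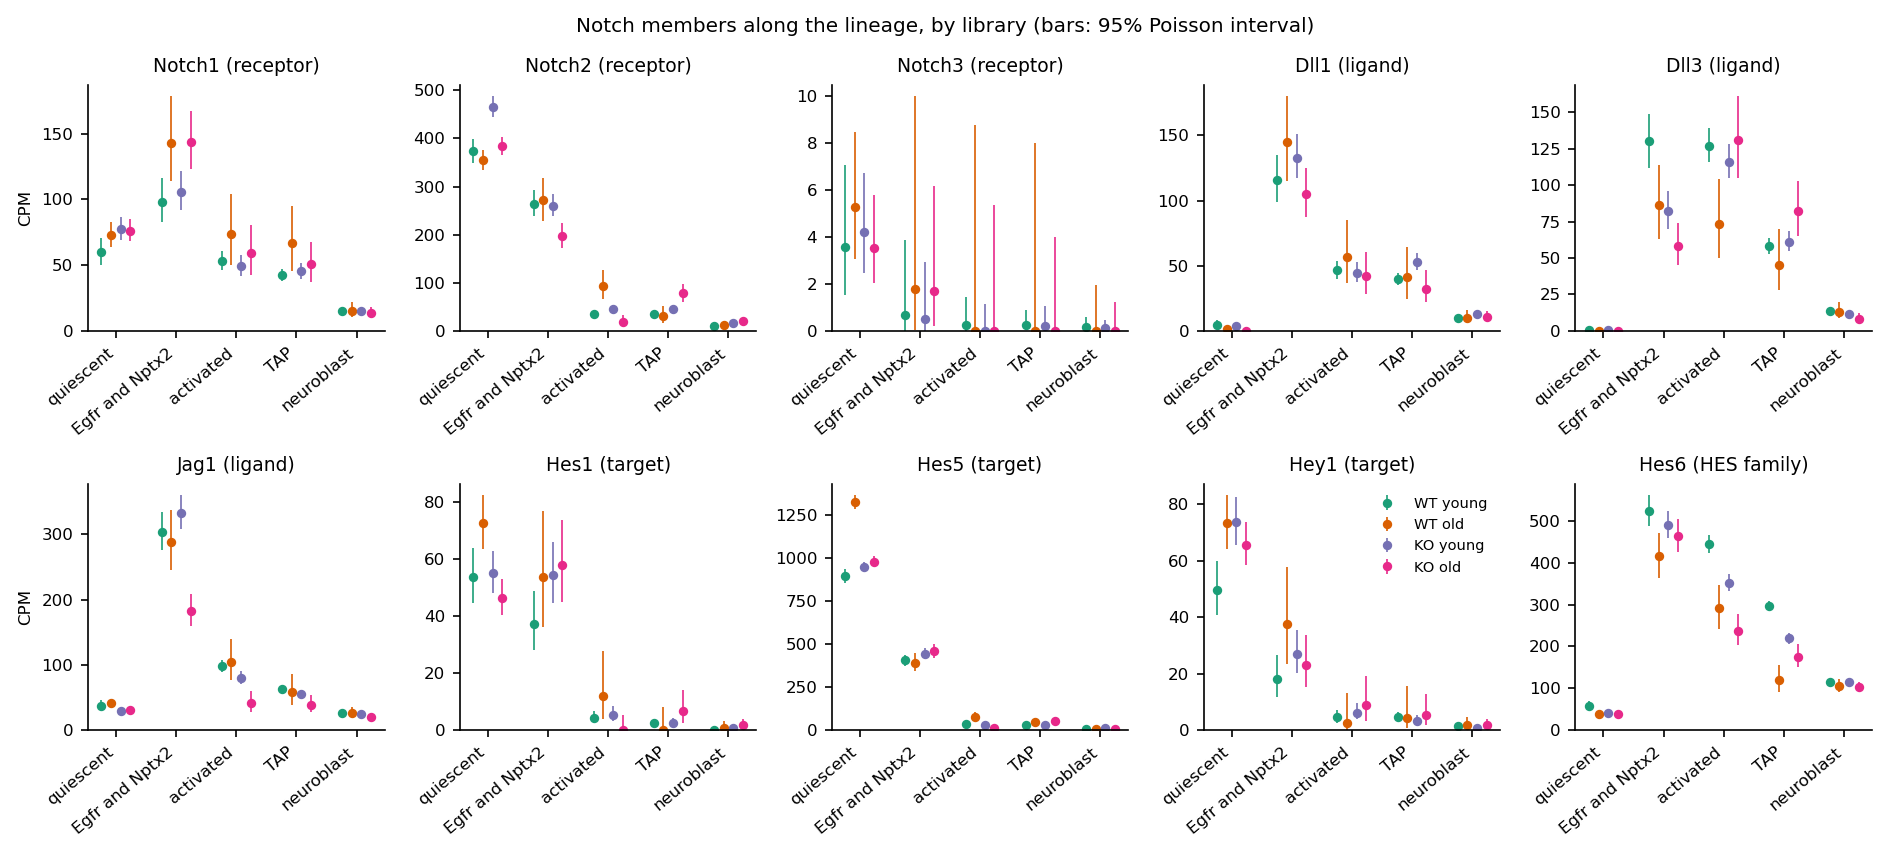
CPM of each member (vertical axis, linear) in the quiescent NSC-like, Egfr and Nptx2, activated NSC-like, TAP-like and neuroblast-like cells (horizontal axis), 1 point for each of 4 libraries with its 95% exact Poisson interval, which covers counting error only. Hes5 falls from between 895 and 1323 in quiescent cells to at most 73.6 in activated cells, while Dll3 goes from under 1 to between 73.6 and 131.

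Hes5, a repressor and a main Notch target in neural stem cells (chr4:154960923-154962371, GRCm38), stood in quiescent cells at 895 CPM for WT young and 1323 for WT old, and at 945 for KO young and 978 for KO old. In activated cells it was 36.2, 73.6, 29.9 and 11.6 in the same order, and the 2 sets of libraries did not overlap. The fall was 5.08 ± 0.17 on the log2 scale (SE, adjusted p = 3.88e-19), and its 2 RBPJ core motifs are shown above. TAP-like cells held 29.3, 45.5, 27.0 and 50.9 CPM, a change of 0.08 (95% interval -0.34 to 0.49) that was not called. Hes5 ended at 5.54, 6.93, 9.56 and 7.03 in neuroblast-like cells, a further fall of 2.15 ± 0.21.

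Hes1, a repressor that is a target of Notch and of other signals (chr16:30064384-30067796), was 53.6, 72.6, 55.3 and 46.4 CPM in quiescent cells of the 4 libraries in that order. It was 4.20, 11.9, 5.19 and 0 in activated cells, with no UMI in the 48 activated cells of KO old, which allows up to 4.36 CPM. The fall was 3.76 ± 0.29 on the log2 scale. Hey1, a HES-related repressor that pairs with HES proteins (chr3:8663359-8667256), stood at 49.6, 73.2, 73.6 and 65.7 in quiescent and at 4.46, 2.37, 6.11 and 8.71 in activated cells, a fall of 3.78 ± 0.22. Both targets thus dropped in every library, with 38 and 44 UMIs left in all 662 activated cells. Neither was called from activated to TAP-like cells. Towards neuroblast-like cells Hes1 fell by a further 2.50 ± 0.54 and Hey1 by 1.95 ± 0.33, from 40 and 62 UMIs to 16 and 37. For Hes1 the library ranges overlapped, at 0 to 6.50 CPM in TAP-like and 0.0802 to 1.67 in neuroblast-like cells. WT old did not fall, with a change of 0.15 on the log2(CPM + 5) scale.

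Of the receptors, Notch2 (chr3:98013527-98150361), known for keeping NSCs quiescent, fell together with the targets. It was 373, 355, 466 and 384 CPM in quiescent cells and 35.2, 92.6, 45.5 and 18.9 in activated cells, with no overlap. The fall was 3.48 ± 0.18 on the log2 scale. TAP-like cells were at 35.0, 30.4, 46.5 and 78.0, and neuroblast-like cells at 11.0, 13.3, 17.2 and 21.4.

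Notch1 (chr2:26457903-26516663), the receptor best known from actively dividing NSCs, moved far less. Quiescent cells held 59.9, 72.9, 77.3 and 76.3 CPM and activated cells 53.1, 73.6, 49.2 and 59.5, ranges that overlap. The fitted fall of 0.63 ± 0.12 on the log2 scale was called (adjusted p = 4.42e-05), but it was -0.03 and not called when the Egfr and Nptx2 cluster was counted as activated, an alternative chosen after seeing the data. Its clear step was the last one, from 42.5, 67.2, 45.3 and 50.9 in TAP-like to between 13.4 and 15.5 in neuroblast-like cells, a fall of 1.69 ± 0.13. Notch3 (chr17:32120820-32166852), a receptor best known from mural cells, was sparse: 58 UMIs in all vSVZ quiescent cells and 1 UMI in 662 activated cells. The pooled level in activated cells was 0.0295 of that in quiescent cells (95% counting interval 7.34e-04 to 0.171), and 3 and 4 UMIs were found in TAP-like and neuroblast-like cells.

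The Delta ligands ran opposite to the targets. Dll1, a ligand that activates Notch on neighbouring cells (chr17:15367354-15376872), was 4.47, 1.24, 3.95 and 0.222 CPM in quiescent cells and 46.5, 57.0, 44.6 and 42.1 in activated cells. The rise was 4.03 ± 0.29 on the log2 scale, and it rests on 31 UMIs in the quiescent cells. In TAP-like cells Dll1 was at 39.8, 41.2, 52.7 and 32.5, a change of 0.05 (95% interval -0.31 to 0.41) that was not called. It fell by 2.02 ± 0.19 to 9.55, 10.1, 12.9 and 10.7 in neuroblast-like cells.

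Dll3, a divergent Delta ligand that is known to work within the cell rather than on neighbours (chr7:28293553-28302238), had 5 UMIs in all vSVZ quiescent cells, 2 from WT young, 2 from KO young, 1 from KO old and none from WT old. Activated cells held 127, 73.6, 116 and 131 CPM from 986 UMIs. Their pooled level was 337 times that of quiescent cells (95% counting interval 144 to 1042). Unlike Dll1, Dll3 fell already from activated to TAP-like cells, to 58.2, 45.5, 61.2 and 82.3, by 0.80 ± 0.13 (adjusted p = 6.52e-05). It fell again by 2.39 ± 0.15 to 13.6, 13.3, 11.7 and 8.37 in neuroblast-like cells.

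Jag1, a Jagged ligand (chr2:137081456-137116644), was present in quiescent cells at 36.7, 40.7, 29.1 and 30.4 CPM and in activated cells at 98.0, 104, 80.3 and 42.1. The rise was 0.98 ± 0.13 on the log2 scale (adjusted p = 1.61e-07). KO old stood apart, with a change of 0.41 on the log2(CPM + 5) scale where the other 3 libraries had 1.26 to 1.32. With every cell thinned to 1000 UMIs the rise of Jag1 was 0.54 and was not called. It then fell to TAP-like cells by 0.43 ± 0.12 (adjusted p = 0.0117) and to neuroblast-like cells by 1.22 ± 0.12, where 26.5, 26.1, 24.2 and 20.4 CPM remained. The fall to TAP-like cells was no longer called without the WT young or without the KO young library, with values between -0.48 and -0.39 over the libraries left out in turn.

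Hes6 (chr1:91411483-91414038), a HES relative that is known to oppose Hes1 and favour neuronal differentiation, followed the ligands and not the targets. Quiescent cells held 58.1, 37.2, 41.2 and 39.3 CPM and activated cells 445, 292, 352 and 238. The rise was 2.65 ± 0.13 (adjusted p = 4.47e-16). Hes6 then fell at each step, by 0.51 ± 0.11 to 296, 119, 220 and 176 in TAP-like cells and by 1.00 ± 0.11 to 116, 106, 114 and 102 in neuroblast-like cells. In every library its neuroblast level lay above its quiescent level, which also held for Dll1 and Dll3.

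From activated to TAP-like cells 3 members were called, all lower (Dll3, Jag1 and Hes6), where 23.1% of the genes passed and 9.63% were lower. The other 7 members had log2 changes between -0.58 and 0.74, and the 95% interval of Notch1, at -0.08, ran from -0.33 to 0.18. From TAP-like to neuroblast-like cells 9 members were called, all lower, where 58.7% passed and 30.6% were lower. Notch3 was the exception, with 7 UMIs in both classes together. The median change of the 10 members at this last step was -1.82 and that of all genes -0.013.

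The other 54 genes of the pathway list described here gave 45 that could be tested along the lineage. From quiescent to activated cells 38 of them were called, 12 higher and 26 lower, with a median of -0.72, where 74.7% of all genes passed. Of the 9 genes of receptor cleavage (ADAM proteases and γ-secretase subunits), 8 fell, where 40.2% of all genes did, for instance the presenilin Psen2 by 2.63 ± 0.25 and the subunit Aph1c by 4.54 ± 0.40. The Fringe glycosyltransferases, which tune which ligand a receptor answers to, split. Lfng fell by 3.31 ± 0.16, from a mean of 164 ± 37.6 to 18.8 ± 5.40 CPM (SD, n = 4 libraries), while Mfng rose by 7.51 ± 0.32, from 0.459 ± 0.633 (5 UMIs) to 82.6 ± 21.8. The ligand Dll4 had no UMI in quiescent cells of any library and 7.44 ± 1.28 CPM in activated cells. Neurl1b, a ubiquitin ligase for ligands, rose by 6.20 ± 0.68 from 1 UMI in quiescent cells, and Insm1, a transcription factor of neurogenic progenitors, by 6.31 ± 0.27. The non-canonical ligand Dlk1 fell by 5.97 ± 0.41 and the repressor Hey2 by 3.53 ± 0.35, together with Hes5, Hes1 and Hey1. Rbpj itself, the DNA-binding partner of the cut receptor, rose by 1.00 ± 0.12, from 37.6 ± 6.62 to 87.9 ± 6.71. Psen2 and Rbpj are outside the 8 largest changes and were named here after their values were seen.

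From activated to TAP-like cells 10 of the 45 were called, 5 higher and 5 lower, against 23.1% of all genes. Neurl1b rose by a further 1.94 ± 0.25, Aph1c by 1.71 ± 0.56 and Insm1 by 0.73 ± 0.16. Psen2 fell by 1.53 ± 0.40, Mfng by 0.99 ± 0.15, the ubiquitin ligase Dtx1 by 0.56 ± 0.18, the glucosyltransferase Poglut1 by 0.52 ± 0.15 and Rbpj by 0.51 ± 0.12. From TAP-like to neuroblast-like cells 21 were called, 14 higher and 7 lower, with a median of 0.06, against 58.7% of all genes. Dll4 fell by 3.98 ± 0.53 and Neurl1b fell by 3.46 ± 0.23. Insm1 fell by 2.51 ± 0.16, and the feedback inhibitor Nrarp fell by 2.23 ± 0.29. Hey2 fell by 1.21 ± 0.44. The co-repressor Tle2 rose by 2.91 ± 0.21, the co-activator Maml3 by 2.04 ± 0.11 and Psen2 by 1.74 ± 0.32.

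The Egfr and Nptx2 cluster (174, 45, 164 and 98 cells in the libraries in the order above) had counts of ligands and of targets. Jag1 was 304, 289, 333 and 183 CPM there and Dll1 116, 145, 133 and 105, in both cases above every other stage of the lineage in each library. Hes5 was 404, 391, 442 and 457, between its quiescent and activated levels. Hes1, at 37.4, 53.8, 54.5 and 58.1, overlapped its quiescent range, with a pooled ratio to it of 0.897 (95% counting interval 0.776 to 1.03). Notch1 had its highest stage level here, at 98.3, 143, 106 and 144, and so did Hes6 on average (474 ± 46.1), although its range overlapped that of activated cells. Dll3, at 130, 86.1, 82.0 and 58.1, was above its activated level in both WT libraries and below it in both KO libraries, and the ranges overlapped. Median depth was 10255 UMIs per cell in this cluster, and the part of depth in these levels was not tested.

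Shares of cells with a UMI, after thinning each cell to 3000 UMIs and leaving out shallower ones, were compared with those in cells that should lack a gene. Hes5 was found in 78.0%, 86.1%, 77.0% and 76.2% of quiescent cells, in the same order of libraries, and in 5.88%, 10.0%, 5.06% and 2.08% of activated cells. Before thinning the shares in quiescent cells were 83.8%, 94.9%, 91.1% and 89.0%. In microglia-like cells, which should lack it, Hes5 was found in 0% to 2.70%. The neuroblast shares of 1.89% to 2.65% did not exceed that range and cannot be told apart from background by it. The range is coarse, since WT old and KO old each gave 37 microglia-like cells. The same holds for the share with Dll1 in quiescent cells (0.166% to 0.615%, microglia-like 0% to 2.82%). The Dll1 UMIs there were uneven, with 25 in the eYFP-rich cluster (6.62 CPM) and 6 in the other quiescent cells (0.586 CPM). In quiescent cells Hes6 was found in 8.29% to 11.4%, while its microglia-like share was above that range in WT young and 0% to 7.04% in the other libraries. It is therefore read as background in WT young only. In the other libraries it lay above the microglia-like share. Hes6 in activated cells, at 41.7% to 54.1%, and Dll3 there, at 24.5% to 35.4% in the 3 libraries with more than 30 such cells, lay above their microglia-like ranges (Dll3 0% to 0.800%). The 30 activated cells of WT old gave an exact binomial interval of 7.71% to 38.6% for Dll3. Microglia-like cells carried Notch2 in 35.2% to 40.5%, so they are no blank for that receptor.

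Within the Egfr and Nptx2 cluster ligand and target were compared cell by cell, as a description in cells thinned to 3000 UMIs. Hes5 was found in 47.2% of the 36 cells with a Dll1 UMI and 49.2% of the 132 without in WT young, 36.4% of 11 and 51.5% of 33 (WT old), 42.9% of 42 and 60.3% of 121 (KO young), and 19.0% of 21 and 56.6% of 76 (KO old). In this cluster the share was lower in the cells with Dll1 in all 4 libraries, by little in WT young. Hes1 had no single direction, with 8.33% against 14.4% in WT young, 9.09% against 6.06% (WT old), 7.14% against 14.9% (KO young) and 14.3% against 13.2% (KO old). Nor did Hes5 in the stages that follow: in WT young it was found in 12.2% of activated cells with a Dll1 UMI and 5.02% of those without, while in KO young the shares were 3.85% and 5.21%. In the cluster Hes6 went the other way, found in 64.3% to 81.8% of cells with a Dll1 UMI and 57.6% to 69.7% of cells without.

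**Figure D2:**
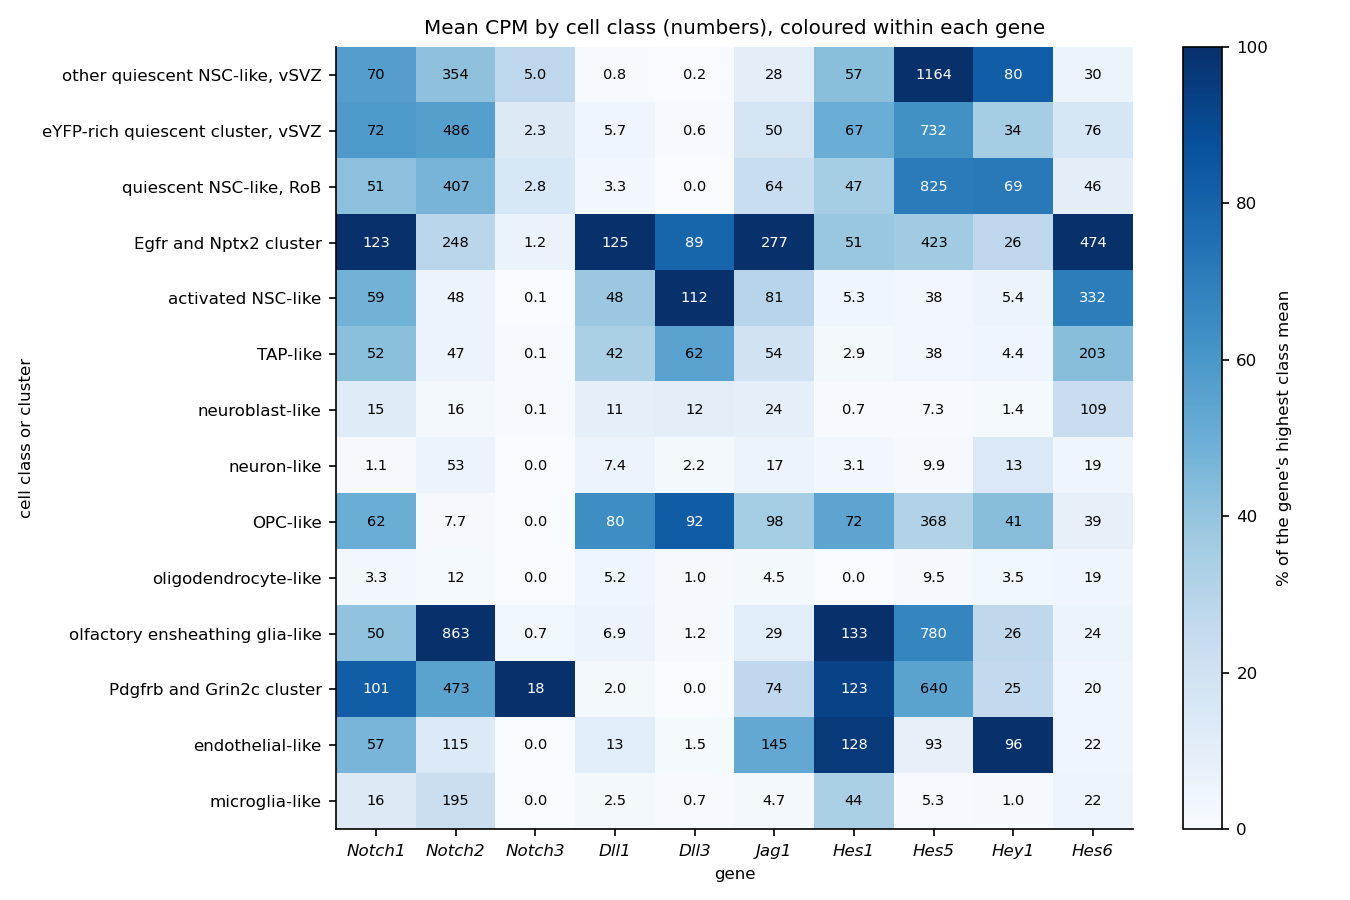
Mean CPM of each member (columns) in each cell class or cluster (rows), averaged over the libraries with at least 20 cells of it, with colour giving the level as a percent of the gene's highest class mean. Notch2 is highest in olfactory ensheathing glia-like cells at 863, Hey1 in endothelial-like cells at 96.5, and Notch3 in the Pdgfrb and Grin2c cluster at 17.9.

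Outside the lineage the members went with other cell types. Olfactory ensheathing glia-like cells, a glial type of the olfactory nerve, held Notch2 at 863 (750 to 944 over 4 libraries), Hes5 at 780 (747 to 811) and Hes1 at 133 (121 to 152). Endothelial-like cells held Hey1 at 96.5 (81.9 to 113), Jag1 at 145 (117 to 186) and Hes1 at 128 (94.9 to 176) over 3 libraries, with Dll4, the ligand known from sprouting vessels, at 69.1 (58.6 to 89.4). Notch3 reached 17.9 (0 to 33.9 over 3 libraries) in an unnamed cluster of 205 cells led by Pdgfrb and Grin2c, which mixes mural and astrocyte genes. Oligodendrocyte precursor-like (OPC-like) cells of the single library with enough of them (KO old, 39 cells) had Dll1 at 79.7, Dll3 at 92.5 and Hes5 at 368. Oligodendrocyte-like cells of 2 libraries had every member at 18.8 or less on average, and neuron-like cells held Notch1 at 1.08 (0 to 2.97). None of these classes entered a test.

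By their pattern over classes 7 of the 10 members fell into 2 sets. Correlations were computed across 25 sums of library and class over 8 classes, on log2(CPM + 5); points of 1 library share its reaction and depth, so they are given as a description. Dll1, Dll3 and Hes6 went together (r = 0.95 for Dll1 and Dll3, 0.92 for Dll3 and Hes6, 0.83 for Dll1 and Hes6). Notch2 and Hes1 went together at r = 0.98, and Hes5 with Hey1 at 0.88, Notch2 at 0.85 and Hes1 at 0.83. The lowest r within this set was 0.66, for Hes1 and Hey1. Notch3, left out of the sets and at a mean of 0.735 CPM, had r = 0.83 with Hey1 and 0.78 with Hes5. With Notch2 and Hes1 its r was 0.57 and 0.56. Between the sets r was negative, for instance -0.48 for Dll1 and Hey1. Among genes with a mean of at least 20 CPM, those most like Dll3 were the replication genes Mcm5 (r = 0.975), Chaf1b (0.974), Rfc4 (0.967), Lig1 (0.967) and Nasp (0.964), and those most like Dll1 were Lig1 (0.967), Rfc5 (0.954), Mcm5 (0.952), Chaf1b (0.949) and Dll3 (0.948). The lists for Dll1 and Hes5 followed the rule for likeness, and those for Dll3, Notch3 and Hey1 were added after their values were seen. Among the 5 most like Hes5 were Gsta4 (0.989), Plcd4 (0.985), Tlcd1 (0.984) and the gap junction gene Gja1 (0.984). Notch3 was most like Tril (0.964), Gm11627 (0.964), Slc7a10 (0.960), the water channel Aqp4 (0.956) and Vcam1 (0.956), and Hey1 like Lsamp (0.959), Gm9925 (0.958), Kcnk1 (0.954), Gabrg1 (0.953) and the hedgehog receptor Ptch1 (0.951). Some of these genes served as markers of the classes.

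The second question was whether the levels in quiescent vSVZ cells differ with age and interferon receptors. Hashtags gave 2 mice per group, and 1 fit over the 8 mice was used. Notch3, Dll1 and Dll3 were too sparse and 7 members were tested among 10420 genes. With age in WT 3 of the 7 were called, Hes5 and Hey1 higher and Hes6 lower, where 15.1% of the genes passed, 7.05% higher and 8.02% lower. In KO mice, and between the genotypes at either age, no member was called. The WT young mice also had the shorter interval after tamoxifen, so in WT, and between the young groups, that interval cannot be told apart from age or genotype. The KO old mice were 92 to 105 weeks old and the WT old mice 80. Between the old groups that age gap cannot be told apart from genotype. Both limits hold for the difference of the age changes.

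**Figure D3:**
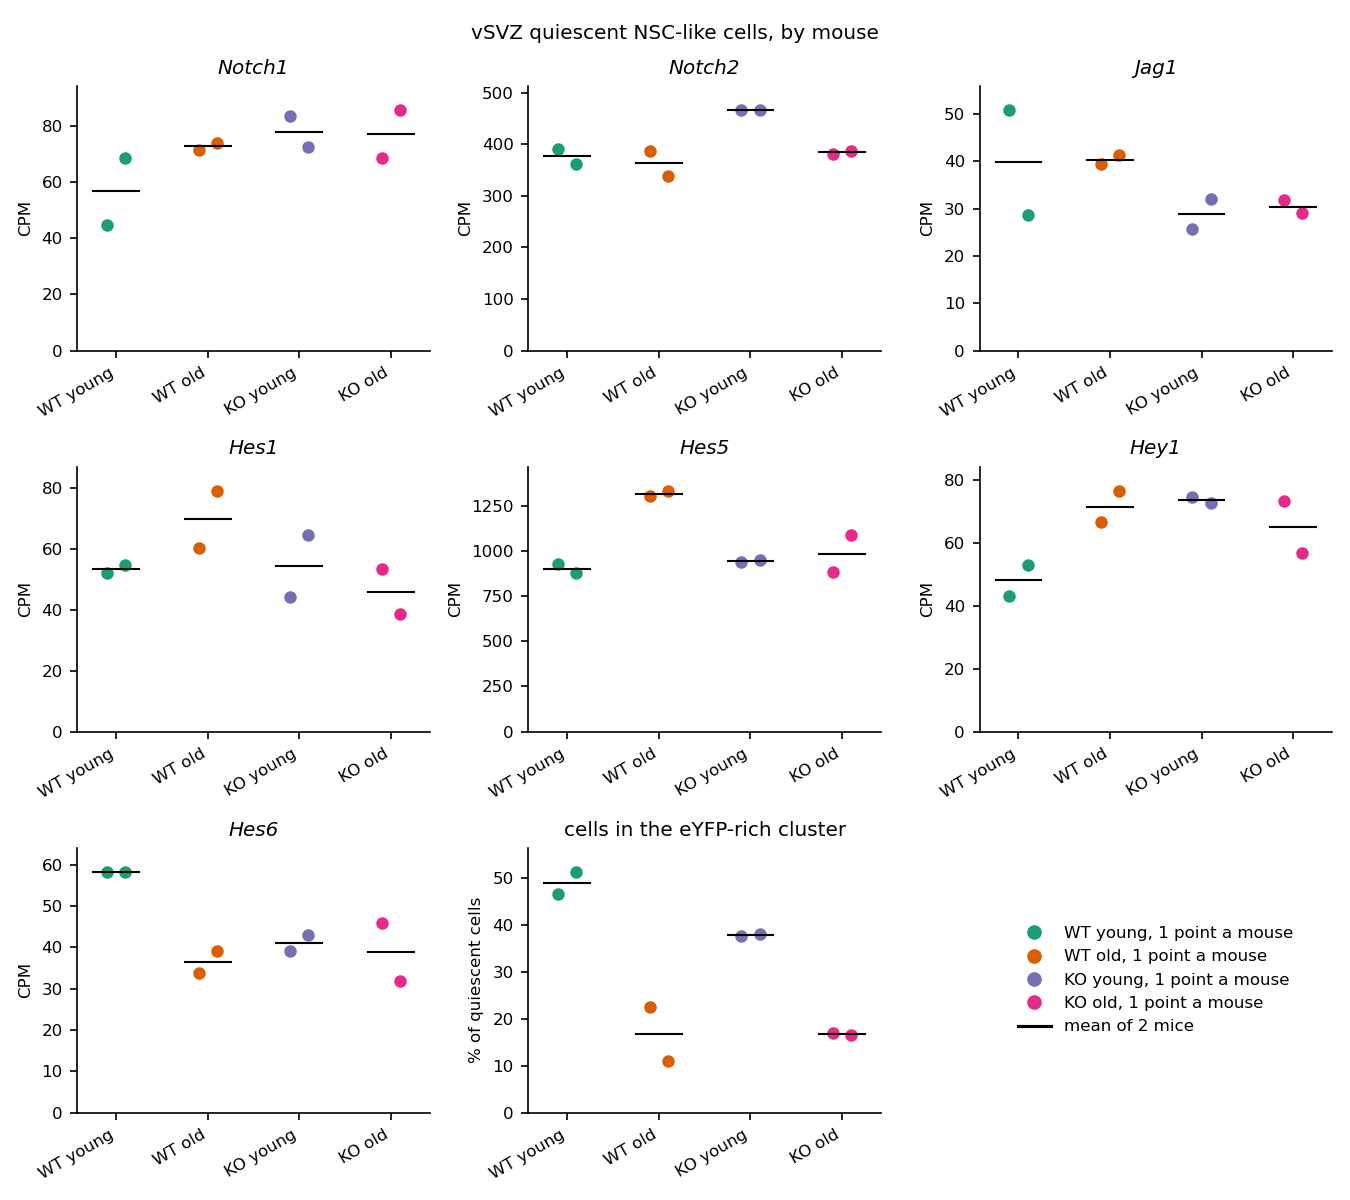
CPM of the 7 tested members in vSVZ quiescent NSC-like cells (vertical axes, linear from 0), and the percent of those cells in the eYFP-rich cluster, with 1 point for each of 2 mice per group and a line at their mean. Hes5 in both WT old mice (1304 and 1332) lies above all other mice, and the eYFP-rich share is lower in old than in young mice of both genotypes.

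Hes5 was 927 and 877 CPM in the 2 WT young mice, 1304 and 1332 (WT old), 940 and 948 (KO young) and 881 and 1090 (KO old). The 2 WT old mice were higher than the other 6. The rise with age in WT was 0.55 ± 0.09 on the log2 scale (SE, adjusted p = 9.49e-05, n = 2 mice per group) and was called with each mouse left out in turn (0.52 to 0.57). In KO the change was 0.09 ± 0.09 (95% interval -0.08 to 0.27, adjusted p = 0.669). KO old against WT old differed by -0.37 ± 0.09 (adjusted p = 0.0920), and the difference of the 2 age changes was -0.46 ± 0.13 (adjusted p = 0.0808), so neither passed over all genes. Both were called without mouse 2 of KO old, at -0.56 (adjusted p = 0.00116) and -0.65 (adjusted p = 0.00301).

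Hey1 was 43.3 and 53.2 CPM (WT young), 66.7 and 76.6 (WT old), 74.6 and 72.8 (KO young) and 73.3 and 57.0 (KO old). The WT young mice were the 2 lowest. The rise with age in WT was 0.56 ± 0.18 (adjusted p = 0.0374), and KO young stood 0.59 ± 0.18 above WT young without passing (adjusted p = 0.0689). Hes6 was 58.2 and 58.1 (WT young), 33.8 and 39.0 (WT old), 39.2 and 42.9 (KO young) and 45.8 and 31.8 (KO old). The WT young mice were the 2 highest, and the fall with age in WT was 0.65 ± 0.21 (adjusted p = 0.0322). As given above, the share of quiescent cells with a Hes6 UMI cannot be told apart from background in WT young. The part of background in this fall was not tested. Each of these 2 calls was lost without mouse 2 of WT old, or without either WT young mouse. The Hey1 call was also lost without mouse 2 of KO young and the Hes6 call without mouse 1 of WT old, with values between 0.42 and 0.76 for Hey1 and between -0.79 and -0.57 for Hes6.

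The make-up of the quiescent class also differed with age. The eYFP-rich cluster accounted for 46.6% and 51.2% of quiescent cells in the vSVZ of WT young mice, 22.4% and 11.0% (WT old), 37.6% and 38.0% (KO young) and 17.0% and 16.4% (KO old). The share was lower in old mice of both genotypes, and the part of this shift in the age changes was not tested. In KO the 3 members were not called, with age changes of 0.09 for Hes5, -0.14 for Hey1 and -0.05 for Hes6. In this cluster Hes5 was lower (732 ± 189 CPM, SD, n = 4 libraries, against 1164 ± 143 in the other quiescent cells) and so was Hey1 (34.1 against 79.5), while Hes6 (76.0 against 29.5), Notch2 (486 against 354), Jag1 (49.6 against 27.8) and Dll1 (5.65 against 0.813) were higher. Those values come from the cells that were clustered and carry no test. The olfactory ensheathing glia markers also differed, summing to between 479 and 1168 CPM per mouse in the eYFP-rich cluster and between 65.0 and 115 in the other quiescent cells, and their part in these levels was not tested. That list includes Prss56, which is also a leading gene of the eYFP-rich cluster and of the Egfr and Nptx2 cluster. Without the eYFP-rich cluster the age changes in WT were 0.22 for Hes5, -0.01 for Hey1 and 0.30 for Hes6, and none was called. Within it alone Hes5 rose by 0.65 (adjusted p = 0.0387), from 650 and 670 in WT young to 1227 and 800 in WT old, while Hey1 (0.84) and Hes6 (-0.41) were not called. In the other quiescent cells Hes5 was 1158 and 1095 (WT young), 1326 and 1398 (WT old), 1100 and 1107 (KO young) and 935 and 1199 (KO old). Depth also differed: median UMIs per quiescent cell were 5424 and 5554.5 in WT young and 7606 and 7440.5 in WT old, and with cells thinned to 1000 UMIs Hes5 alone of the 7 was called.

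Summed marker levels also differed between these groups. The 10 neuroblast markers, of which 1 to 3 were at 0 in a mouse, summed to 365 and 401 CPM in the quiescent cells of WT young, 169 and 148 (WT old), 298 and 303 (KO young) and 127 and 142 (KO old). The 10 quiescent NSC markers, none at 0, were lowest in WT young, at 25145 and 25006 CPM, and lay between 28844 and 30460 in the other 6 mice. The 7 oligodendrocyte markers, of which 0 to 4 were at 0, were at 14.9 and 17.5 in WT young, 64.0 and 70.9 (WT old) and between 41.4 and 48.4 in the KO mice. The 8 markers of olfactory ensheathing glia, 1 to 5 at 0, were at 267 and 465 in WT young, 197 and 167 (WT old), 227 and 417 (KO young) and 215 and 294 (KO old). The last list includes Prss56, a leading gene of the eYFP-rich cluster. The part of these 4 lists in the age changes was not tested.

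The other 4 tested members were not called in any of these comparisons. Notch2 was 391 and 362 CPM (WT young), 387 and 339 (WT old), 466 and 466 (KO young) and 381 and 387 (KO old). Its nearest approach was KO against WT in young mice, at 0.33 ± 0.09 (adjusted p = 0.0508), with both KO young mice above all others, and it passed without either KO old mouse or without mouse 2 of WT old (lowest adjusted p = 0.0377). Notch1 ranged from 44.6 to 85.5, Jag1 from 25.6 to 50.8 and Hes1 from 38.5 to 78.9 over the 8 mice. Their changes with age in WT were 0.30 (95% interval -0.08 to 0.67), 0.12 (-0.34 to 0.58) and 0.42 (0.01 to 0.82, adjusted p = 0.177).

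**Figure D4:**
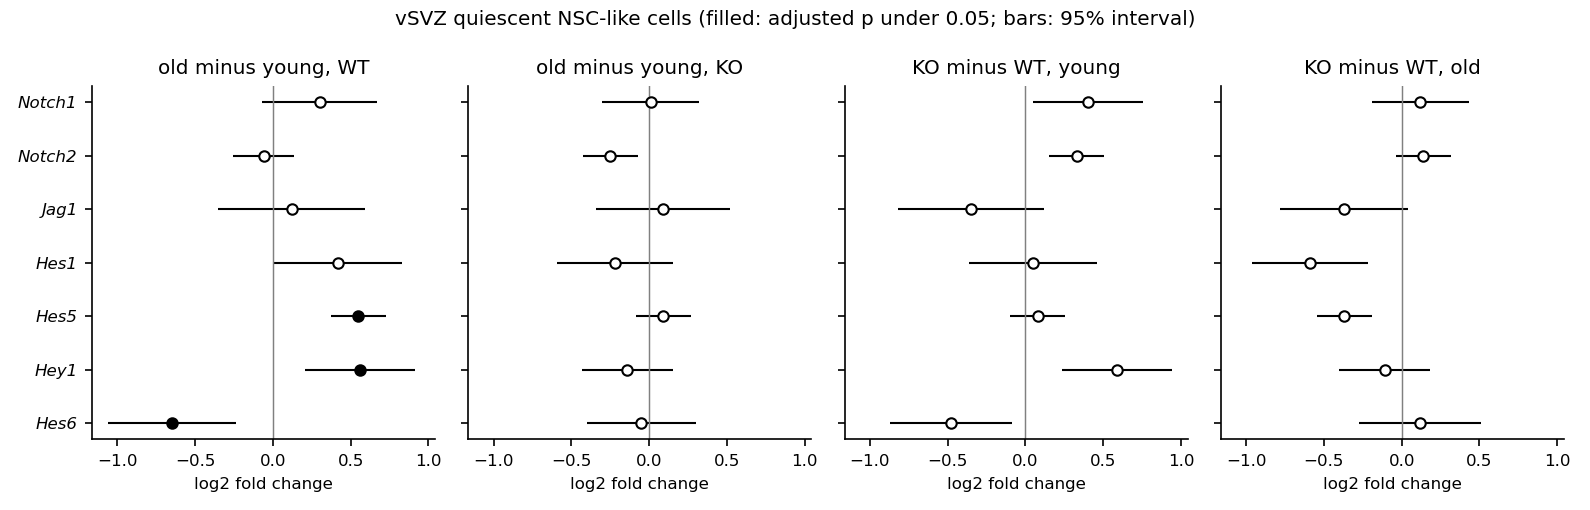
Log2 fold changes (horizontal axes) of the 7 tested members in vSVZ quiescent NSC-like cells for age in WT, age in KO, and KO against WT in young and in old mice, with bars of the 95% interval (1.96 SE) and filled points where the adjusted p is under 0.05. Hes5, Hey1 and Hes6 are filled for age in WT only, at 0.55, 0.56 and -0.65, which does not show that the genotypes differ.

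With age in KO 0 of the 7 members were called by edgeR and by DESeq2, where 4.54% of all genes passed the adjusted threshold. At an unadjusted p under 0.05 there was 1 member, against 16.8% of all genes. Between KO and WT in young mice 0 were called by edgeR (2.77% of all genes), and 4 had an unadjusted p under 0.05 (15.4%). In old mice the counts were 0 (0.221%) and 2 (8.04%), and for the difference of the age changes 0 (1.10%) and 4 (13.6%). In these 3 comparisons DESeq2 gave an adjusted p for Notch2 and Hes5 only and called neither, so it tells nothing about the other members. For the difference the intervals were -0.71 to -0.20 for Hes5, -1.16 to -0.24 for Hey1 and 0.06 to 1.15 for Hes6, before adjustment over all genes. Of the sparse ligands, Dll1 had 6 and 4 UMIs in the quiescent cells of the WT young mice, 1 and 3 (WT old), 5 and 11 (KO young) and 1 and 0 (KO old). Under 3 alternatives that tested Dll1 its change with age in KO was called, for instance at -3.74 with no filter on low counts (adjusted p = 0.0216). It rests on 17 UMIs.

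Of the other pathway genes 41 could be tested in the quiescent cells. With age in WT 8 of the 41 were called, 4 higher and 4 lower, where 15.1% of all genes passed. The repressors Heyl (2.05 ± 0.56) and Hey2 (0.84 ± 0.27) rose along with Hes5 and Hey1. For Heyl 2 and 5 UMIs were counted at the young age and 16 and 26 at the old age. Lfng rose by 0.60 ± 0.13, from 134 and 113 to 166 and 197 CPM, and the co-activator Ep300 by 0.75 ± 0.18. The co-repressor Tle5 fell by 0.48 ± 0.11, the γ-secretase subunit Psenen by 0.36 ± 0.10 and the ubiquitin ligase Nedd4 by 0.35 ± 0.09. Insm1 had 10 UMIs in each WT young mouse and none in the WT old mice. Of 8 alternative settings the call was kept in 5 for Lfng and Tle5, in 4 for Hey2, Ep300 and Nedd4 and in 3 for Psenen. Heyl kept it in 3 of 5 and Insm1 in 3 of 3. With age in KO, Lfng rose by 0.50 ± 0.11, from 140 and 150 to 210 and 195, a call kept in 3 of 8 settings (highest adjusted p = 0.768). Dner, a non-canonical ligand, fell by 1.39 ± 0.22 with age in KO, from 44.1 and 45.2 CPM to 15.4 and 18.0, called in 5 of 6 settings. In WT it was 30.9 and 18.9 in young and 32.0 and 27.7 in old mice. The 2 age changes of Dner differed by -1.71 ± 0.34 (adjusted p = 0.00780), and KO young exceeded WT young by 0.94 ± 0.24 (adjusted p = 0.0259). The first of these was kept in 4 of 5 settings (highest adjusted p = 0.455) and the second in 3 of 5 (0.457). Without mouse 2 of WT young neither was called, at -1.33 and 0.56, and the second was also lost without either KO young mouse.

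The third comparison set quiescent cells of the vSVZ against those of the RoB in the same 8 mice, with the mouse as a block and 7 members tested among 8018 genes. Notch1 and Hes5 were higher in the vSVZ and Jag1 lower. These are 3 called members, 2 higher and 1 lower, where 13.2% of the genes passed, 6.12% higher and 7.06% lower. The sort of the vSVZ differed from the sort of the RoB, so tissue and sort cannot be told apart. The mix of clusters within the quiescent class, which also holds astrocytes, differed between the tissues too. Of the hashtagged cells in its clusters, 93.6%, 87.3%, 86.2%, 54.8%, 39.1% and 0.943% were from the vSVZ. The part of this mix in the tissue differences was not tested.

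**Figure D5:**
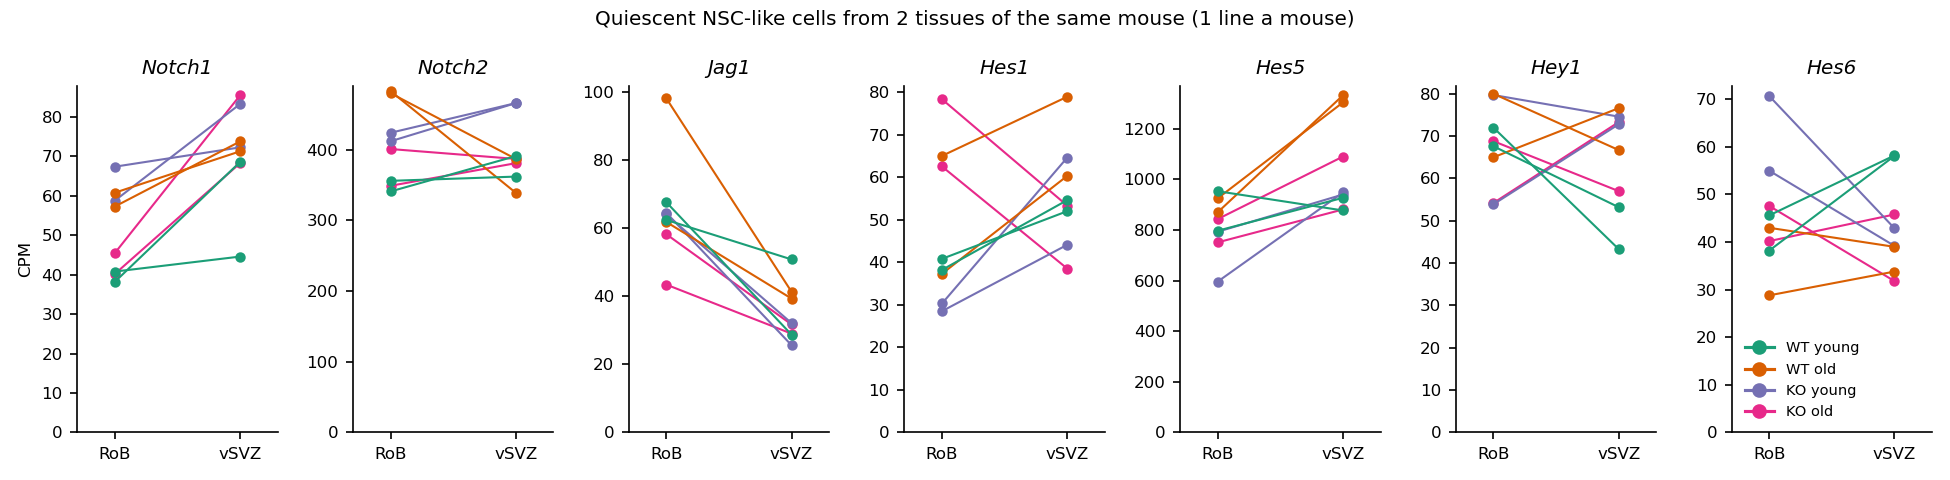
CPM of the 7 tested members (vertical axes, linear from 0) in quiescent NSC-like cells of RoB and vSVZ (horizontal axis), with 1 line for each of 8 mice coloured by group. Jag1 falls from RoB to vSVZ in all 8 mice and Notch1 rises in all 8, while Hes5 rises in 7.

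Jag1 was 62.4 and 67.6 CPM in the RoB of WT young, 61.8 and 98.1 (WT old), 64.5 and 64.0 (KO young) and 58.2 and 43.4 (KO old). In the vSVZ it was 50.8 and 28.7, 39.3 and 41.3, 25.6 and 32.1, and 31.7 and 29.0 for the same mice. It was lower in the vSVZ in all 8 mice, with a log2 difference of -0.92 ± 0.13 (adjusted p = 1.36e-06). With coarser clusters (Leiden resolution 0.5) the difference was -0.32 and was not called.

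Notch1 was higher in the vSVZ in all 8 mice, by 0.49 ± 0.12 (adjusted p = 0.00266). The RoB held 40.8 and 38.2 (WT young), 60.8 and 57.3 (WT old), 58.8 and 67.4 (KO young) and 40.2 and 45.5 (KO old). Hes5 was higher in 7 of 8 mice, by 0.34 ± 0.07 (adjusted p = 1.70e-04), with RoB values of 797 and 953, 925 and 870, 793 and 596, and 751 and 843 in the same order. The exception was mouse 2 of WT young, at 953 in the RoB and 877 in the vSVZ. Notch2, Hes1, Hey1 and Hes6 were not called, with differences of -0.05, 0.16, -0.06 and -0.12 and 95% intervals within -0.40 and 0.45.

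Without the eYFP-rich cluster Hes5 differed by 0.55, Notch1 by 0.49 and Jag1 by -1.18, all called, in an alternative chosen after seeing the data. Of 35 other pathway genes tested 7 were called, 4 higher and 3 lower, where 13.2% of all genes passed. Dner had the largest difference among them, at -2.54 ± 0.12, and Tle4 (-0.45 ± 0.07) and Dtx1 (-0.41 ± 0.11) were lower too. Dlk1 (1.13 ± 0.27), Tle1 (0.61 ± 0.13), Hey2 (0.56 ± 0.19) and Nedd4 (0.20 ± 0.07) were higher. The calls of Dner, Tle4, Dlk1 and Tle1 were kept in every alternative setting that tested them. Dtx1 kept its call in 5 of 7, Hey2 in 2 of 6 and Nedd4 in 3 of 8 (highest adjusted p = 0.864). The 10 quiescent markers, none at 0 in any mouse, summed to between 25006 and 30460 CPM in the vSVZ and between 21763 and 25778 in the RoB, and the olfactory ensheathing glia markers to between 167 and 465 against 21.6 to 165. The 7 OPC markers, of which 2 to 4 were at 0 in a mouse, summed to between 24.7 and 49.0 in the vSVZ and between 129 and 186 in the RoB. The part of these lists, Prss56 included, in the tissue differences was not tested. Fewer transcripts per cell and a smaller share of expressing cells cannot be told apart in sums of this kind.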

How the data were processed

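TiCY mouse brain cells from 4 groups of 2 mice were profiled by droplet 3′ RNA sequencing. The UMI counts as deposited, 1 matrix of 844265 barcodes and 32287 genes, were made by the authors with kallisto and bustools on GRCm38 and are raw, with no cell filter. The hashtag counts as deposited are raw counts of antibody tags per barcode. Scanpy 1.6.0 is also named in the submitters' processing notes. Of 9 samples, 1 had no group in its labels and was not used. No column belonged to a sample of another series.

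Barcodes were kept at 100 to 6000 detected genes, 1000 to 20000 UMIs and a mitochondrial share below 10% (18390 cells), and doublets called by Scrublet in scanpy 1.11.5 were removed (98 from WT young, 29 from WT old, 176 from KO young, 36 from KO old). Clusters came from 2000 variable genes, 50 components, 15 neighbours and Leiden resolution 1, leaving out the members, the Notch pathway list, the interferon genes of the study, reporter genes and mitochondrial genes. A class needed at least 3 markers and 50% of its list. Raw UMIs were summed per library and class, or per mouse where hashtags gave it, reading the hashtag number as the mouse. Levels are CPM of these sums. The tests were edgeR 4.0.16 quasi-likelihood fits (TMM, filterByExpr, R 4.3.3) with the library as a block for stages, the mouse as a block for tissues and no block for the 8 mice. Every adjusted p is a Benjamini-Hochberg value from such a fit over all genes tested, and "called" means an adjusted p under 0.05. SE is the fold change over the root of F, and intervals are 1.96 SE. Counting intervals and floors (3 counts) cover counting error only. The mice of a group shared a reaction, so p-values between groups measure only the spread between mice within reactions. Scripts were tested on simulated data.

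All 10 members were named, and of the other pathway genes those called (the 8 with the largest log2 change where more were called). Some genes are not reported here. The members and lists were chosen with earlier results of these data known. DESeq2 1.42.0, other filters, thinning, other clusters, stricter hashtag calls and leaving out each library or mouse were tried as alternatives. Levels of 3′ UMIs were not compared between genes for length. Gene positions are from GENCODE vM21, which held 32158 of the gene identifiers.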

Additional observations from a re-analysis of the deposited data

Results flagged for a closer look

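In 37 sets of values screened for 1 value far from the rest, 2 stood out, and chance alone gives about 1 in 20. Jag1 changed from quiescent to activated cells by 0.41 on the log2(CPM + 5) scale in KO old, against 1.31, 1.26 and 1.32 in WT young, WT old and KO young. Notch3 changed from activated to TAP-like cells by 0.06 in KO young and by -0.01, 0.00 and 0.00 in the other libraries, all on a few UMIs.

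For Dner, which is not a member, the change with age in quiescent vSVZ cells differed between the genotypes by the edgeR test of that difference (KO minus WT). The difference was -1.71 (adjusted p = 0.00780), and both KO old mice were below both KO young mice. The call was kept in 4 of 5 alternative settings (highest adjusted p = 0.455) and lost without mouse 2 of WT young. The KO old mice were also older than the WT old mice, and the part of that gap was not tested. None of the 7 tested members passed this test.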

How the results depend on the processing

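Of 72 recomputed counts of called members under settings other than leaving out a library or mouse, 56 were within 1.5 times the reported count, and of 850 values of single genes 758 stayed on their side of the threshold, 71 lost it, 13 gained it and 8 changed direction. With each library or mouse left out in turn, 649 of 701 single values stayed, 47 lost the threshold and 5 gained it. A further 70 values changed sign without passing the threshold under either setting and were not counted as changes of direction. Of 490 shares of cells, 282 lay outside their counting interval when all UMIs were used in place of thinned cells.

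From activated to TAP-like cells 3 members were called, 1 with cells thinned to 1000 UMIs, 1 with no library block and 9 with the Egfr and Nptx2 cluster counted as activated, a setting chosen after seeing the data. In that last setting Notch2 was -1.33, Dll1 -0.71, Hes5 -2.36 and Aph1c -0.02. With age in WT 3 members were called, 1 by DESeq2, 1 when thinned, 0 without the eYFP-rich cluster and 1 in that cluster alone. Without the cluster Hey1 was -0.01 and Hes6 0.30, and in it alone Lfng was -0.03. With age in KO no member was called, but 1 was with no filter on low counts (Dll1) and 1 at Leiden resolution 0.5 (Notch2). Between KO and WT in young mice the count of 0 became 1 with no filter and 3 at resolution 0.5, in old mice 1 and 1, and for the difference of the age changes 1 and 2. Between the tissues the count of 3 became 1 when thinned, where only 2 members could be tested. Hes6 was 0.61 there at resolution 0.5. Apart from fewer tested members when thinned, the cause of these shifts was not tested.

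Leaving out 1 mouse at a time, the members called with age in WT ranged from 1 to 3, and from 0 to 1 with age in KO, between KO and WT in young mice, in old mice, and for the difference of the age changes. Along the lineage the counts ranged from 9 to 10, from 2 to 3 and stayed at 9, and between tissues they stayed at 3.

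No paired analysis was possible because an equal hashtag number marks unrelated mice in any pair of groups and each group was a single reaction, so the comparisons between groups carry no replicate block. Without the mouse block the tissue differences of Hes5 (0.34), Notch1 (0.48) and Jag1 (-0.94) were all called. Notch3, Dll1 and Dll3 had too few UMIs per mouse in quiescent cells to pass the filter on low counts.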
